A study of Mus musculus with 52 samples.

Results

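The Mbd3 ChIP-seq peaks of Mbd3+/+ mouse cells were described along reprogramming, from embryonic fibroblasts (MEF) through day 4 of induction to induced pluripotent stem (iPS) cells. The members were all peaks in the 3 Mbd3 lists of +/+ cells, which held 11778 of the 928298 peaks in the 43 lists of the series. The MEF list held 1177 peaks, the day 4 list 1944 and the iPS list 8657. Peaks were sorted into stage-only and shared by whether they overlapped a peak of another Mbd3 list by at least 1 bp, and no signal value entered that choice.

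Mbd3 belongs to NuRD, a complex that joins histone deacetylases to a nucleosome remodeller. Mi2B is that remodeller, so a site bound by NuRD can carry both proteins. Oct4 is a pluripotency transcription factor that fibroblasts do not normally make and that the reprogramming transgenes supply. Of the histone marks, H3K4me3 lies at promoters and H3K27ac at active promoters and enhancers. H3K27me3 is laid down by Polycomb complexes at silenced developmental genes, and promoters that carry it together with H3K4me3 are called bivalent.

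The cells whose Mbd3 peaks are described were Mbd3+/+ MEF with transgenes that express Oct4, Sox2, Klf4 and Myc when doxycycline is added, given at 2 ug/ml from day 0. MEF were taken before induction, in serum medium, while day 4 to day 8 cells and iPS cells grew in serum-free medium with 2i and LIF, so stage and medium cannot be told apart. The +/+ series came from 1 clone carrying a GOF18 deltaPE-Oct4-GFP reporter at a random site, and cells were not sorted, so day 4 chromatin is that of a mixed culture. A pair of lists from other genotypes is also used singly: Oct4 of uninduced Mbd3flox/- MEF with the same kind of transgenes, and Mi2B of Mbd3-/- mouse ES cells. Where a region is counted over the 40 other lists, 18 of those are of +/+ cells. The rest are of Mbd3flox/- MEF, day 4, day 8 and iPS cells and of Mbd3-/- ES cells. Mbd3flox/- cells of day 4 and day 8 also had doxycycline at 2 ug/ml. Titles were followed for the stage: the day 4 Mbd3 sample is day 4 by title and day 6 by its stage label, the day 4 H3K27me3 sample has a stage label of day 5, and the Mi2B samples of days 4 and 8 have day 7 and day 11. The labels name several Mbd3 antibodies without saying which library used which.

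Every stage had 1 Mbd3 library, so no difference between stages has a replicate check. Shares are given with 95% Wilson intervals in brackets and differences, in percentage points, with Newcombe ones, which reflect counting error alone. A difference is called here where its interval excludes 0. Read depth is unknown, so a stage without a peak is a stage where none was detected. The 3 Mbd3 lists differ in shape as well as length: they covered 0.602 Mb (MEF), 0.384 Mb (day 4) and 7.93 Mb (iPS). The score of each peak is the authors' own and is used only within its list. In the MEF list 43.2% of peaks scored below 55, just above the lowest score of 50, against 16.2% on day 4 and 18.7% in iPS cells.

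Mbd3 peaks were mostly different ones at each stage. Of the MEF peaks, 9.18% (7.66 to 11.0) overlapped a day 4 peak and 6.46% (5.19 to 8.01) an iPS peak. Of the day 4 peaks, 7.51% (6.42 to 8.77) overlapped a MEF peak and 10.8% (9.50 to 12.3) an iPS peak. The long iPS list held 0.843% of peaks that overlapped MEF and 2.16% that overlapped day 4. Merging all 3 lists gave 11363 regions. MEF alone held 1011 of them, day 4 alone 1609 and iPS alone 8418. Day 4 and iPS shared 163 regions without MEF, MEF and day 4 shared 89 without iPS, MEF and iPS shared 52 without day 4, and 21 regions had a peak in all 3 lists.

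**Figure D1:**
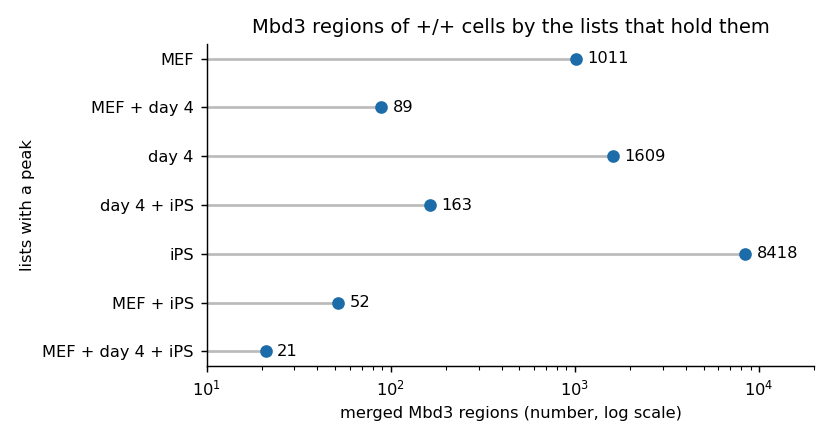
Merged Mbd3 regions by the set of lists with a peak there; each point is a number of regions on a log axis. The stage-only sets hold 1011, 1609 and 8418 regions, and the shared sets hold 21 to 163.

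Higher-scoring peaks were shared more often. In MEF, 37 of the 42 peaks with a score of at least 100 were shared (88.1%, 75.0 to 94.8), against 11.3% of the rest. On day 4 the shares were 34.5% and 13.9%, and in iPS cells 5.20% and 2.18%. Of the 42 MEF peaks, 22 lay on MEF Oct4 peaks, which are described last. Outside those regions 16 of 20 MEF peaks with such scores were shared.

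Peak width followed the list more than the class. The median width was 481 bp for MEF-only peaks and 546 bp for shared MEF peaks. Day 4-only peaks were narrow, with a median of 153 bp, against 175 bp for shared day 4 peaks and 222.5 bp for those shared with MEF alone. iPS-only peaks had a median of 849 bp and shared iPS peaks 961 bp. Where a day 4 peak overlapped an iPS peak, it lay wholly inside it in 82.4% of cases. The 22 day 4 peaks in all 3 lists were wider, with a median of 378 bp. A wider peak meets other lists more easily, so shares are compared between classes of 1 list, and within the day 4 list the classes still differ in width.

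**Figure D2:**
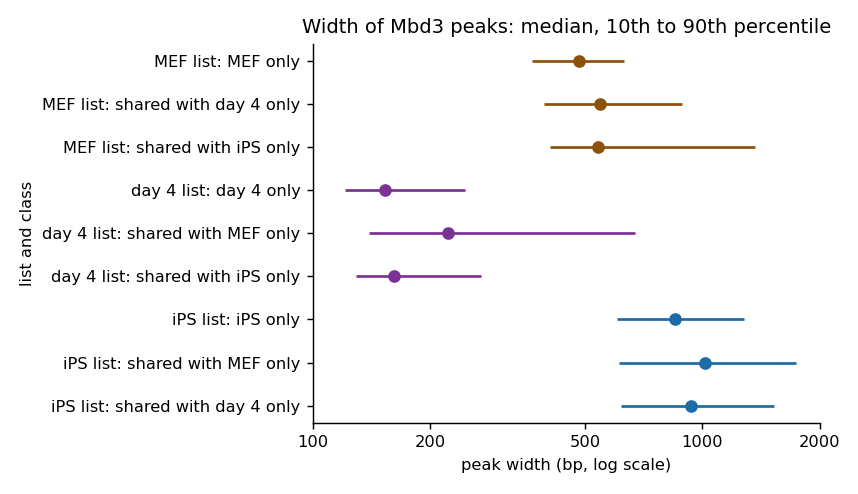
Width of Mbd3 peaks in bp on a log axis, by list and class; points are medians and lines run from the 10th to the 90th percentile. The day 4 medians drawn are 153 to 222.5 bp, below those of both other lists, and peaks in all 3 lists are not drawn.

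Stage-only and shared peaks lay in different chromatin. Over 3 Mbd3 lists and the 18 other lists of +/+ cells, 46 of 54 differences between stage-only and shared peaks had an interval that excluded 0, or 85.2%. A single called difference is therefore ordinary here, and the sizes below carry the description.

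MEF-only Mbd3 peaks mostly lacked H3K4me3. Of the 1012 peaks, 53.0% overlapped MEF H3K27ac, against 40.6% of shared MEF peaks, a difference of 12.4 points (4.14 to 20.2). Without peaks on MEF Oct4 peaks of either genotype the difference was 6.48 points and was not called. H3K4me3 was found at 10.2% of MEF-only peaks and 50.3% of shared ones, and H3K27me3 at 5.34% and 59.4%. Thus 445 MEF-only peaks (44.0%) had H3K27ac without H3K4me3, and 432 (42.7%) overlapped none of the 3 marks in MEF.

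The acetylation at MEF-only peaks was found less often at later stages. Its share was 29.2% with the day 4 list, 32.0% with day 8 and 16.4% with iPS. Those H3K27ac lists were shorter, with 28173, 39463 and 36285 peaks against 63888 in MEF, so part of any loss can follow list length. Of the 445 with H3K27ac and no H3K4me3 in MEF, 349 (78.4%) had no mark in iPS cells and 64 (14.4%) kept H3K27ac without H3K4me3. By contrast, 51 of the 80 with H3K4me3 and H3K27ac in MEF (63.8%) had both marks in iPS cells. Of the unmarked peaks, 96.5% had no mark in iPS cells either. Mi2B of day 4 lay at 9.98% of MEF-only peaks and Mi2B of iPS cells at 7.11%, and a MEF Mi2B list was not analysed here.

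The 5 highest-scoring MEF-only peaks outside MEF Oct4 regions, scored from 99.6 to 109.63, all overlapped MEF H3K27ac and no H3K4me3. The first, at chr11:53609960-53610788 (mm9, as for all positions here), scored 109.63 and was acetylated at every stage. Those at chr9:66836618-66837305, chr11:117121678-117122403 and chr2:24272076-24272816 had no mark in iPS cells. The remaining one, at chr4:144862512-144863261, had H3K27ac at every stage and Mi2B in iPS cells.

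Peaks shared by MEF and day 4 but not iPS lay on Polycomb chromatin of the fibroblasts. They were 89 MEF peaks and 124 day 4 peaks. MEF H3K27me3 overlapped 78.7% of the MEF peaks, 73.3 points above MEF-only peaks, and 80.6% of the day 4 peaks, against 38.1% of day 4-only peaks, 42.5 points apart (34.3 to 48.9). H3K4me3 of iPS cells lay at 89.9% of these MEF peaks and 90.3% of these day 4 peaks. Both H3K4me3 and H3K27me3 were found at 52.8% of the MEF peaks in iPS cells and at 28.1% in MEF. H3K27ac of iPS cells lay at 44.9% of the MEF peaks. H3K27ac of the same stage was less frequent than at stage-only peaks, at 32.6% in MEF and 16.1% on day 4. None of the 89 MEF peaks lay on a +/+ MEF Oct4 peak.

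These peaks lay in broad H3K27me3 domains, as day 4-only peaks on that mark did. The MEF H3K27me3 peaks with a MEF Mbd3 peak of this class had a median width of 4618 bp, against 1097 bp over all 36232 MEF H3K27me3 peaks and 5356 bp for those with a day 4-only Mbd3 peak. Of the day 4 Mbd3 peaks of this class, 71.0% had another day 4 peak within 2 kb, compared with 30.7% of day 4-only peaks, while 10.1% of the MEF peaks of this class had another MEF peak that near. The interval given above for the day 4 peaks of this class counts such neighbours as independent. The day 4 peaks' median score was 103.955, above the day 4-only median of 62.3. A wide H3K27me3 peak meets more Mbd3 peaks by its length alone, and that part of the overlap was not tested. With every peak cut to 250 bp either side of its midpoint, 22.9% of the MEF and day 4 class and 10.8% of day 4-only peaks met MEF H3K27me3.

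The strongest of these, at chr2:181405077-181406444, scored 200.92 in MEF, and its day 4 counterpart scored 1629.65. It overlapped H3K27me3 without H3K4me3 in MEF, Mi2B on day 4, and H3K4me3, H3K27me3 and H3K27ac in iPS cells. The next in both lists, at chr7:19864578-19865459, went from H3K27me3 alone in MEF to H3K4me3 with H3K27ac in iPS cells, as did the third, at chr15:85863128-85864108. An exception was chr5:148035013-148035822 (day 4 score 812.8), which had H3K27me3 in MEF and no mark in iPS cells. Another was chr10:67001112-67001835 (day 4 score 806.62), which had H3K4me3 with H3K27ac and no H3K27me3 in MEF, and was bivalent in iPS cells.

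Day 4-only peaks formed a mixed class, some on H3K27me3 and others on H3K4me3 with H3K27ac in MEF. Of the 1610 peaks, 457 (28.4%) had H3K27me3 without H3K4me3 in MEF, 383 (23.8%) had H3K4me3 with H3K27ac, 278 (17.3%) H3K27ac without H3K4me3, 137 (8.51%) were bivalent and 343 (21.3%) were unmarked. Compared with shared day 4 peaks they overlapped same-stage factors and marks less often. H3K27ac of day 4 lay at 36.2% against 49.1% (difference -12.9, -18.7 to -7.06), Mi2B at 19.9% against 33.8% (-14.0, -19.5 to -8.69), Oct4 at 13.2% against 27.8% (-14.7, -20.0 to -9.82) and H3K4me3 at 31.2% against 38.6% (-7.38, -13.1 to -1.82).

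That contrast depended on which peaks were kept. With equal numbers of top-scoring peaks in each Mbd3 list, the differences turned to 8.55 points (0.627 to 15.5) for H3K27ac and 4.41 for Mi2B, while those for Oct4 and H3K4me3 shrank to -3.01 and -0.0702 and were no longer called. With scores of at least 100 the H3K27ac difference was 6.63 points (-9.75 to 16.6). In these settings 3.23% and 4.15% of day 4 peaks overlapped iPS, against 10.8% of all. The pooled shared class mixes peaks shared with MEF and peaks shared with iPS, and their separate values are given below.

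H3K4me3 came late to many day 4-only peaks. Its share was 33.0% with the MEF list, 31.2% with that of day 4, 435 of 1610 with day 8 (95% interval 24.9 to 29.2%) and 65.7% with iPS, or 93.6% for those with scores of at least 100. The H3K4me3 lists themselves held 17023 peaks in MEF and 30381 in iPS cells, so part of any gain can follow list length. Of the 457 peaks with H3K27me3 and no H3K4me3 in MEF, 219 (47.9%) were bivalent in iPS cells, 128 (28.0%) had H3K4me3 alone and 77 (16.8%) H3K4me3 with H3K27ac. Of the 383 with H3K4me3 and H3K27ac in MEF, 69.2% had both in iPS cells. Of the 278 with H3K27ac and no H3K4me3 in MEF, 48.2% had no mark in iPS cells. H3K27me3 on days 4 and 8 could not be read, because those lists held 570 and 939 peaks.

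Day 4 Mbd3 peaks were set apart from other proteins of the same day by their earlier Polycomb mark. MEF H3K27me3 lay at 39.6% of all day 4 Mbd3 peaks but at 4.91% of day 4 Mi2B peaks without Mbd3, a difference of 34.7 points (32.5 to 36.9), and at 5.02% of day 4 Oct4 peaks without Mbd3. H3K4me3 of iPS cells lay at 68.2% of Mbd3 peaks, 51.4% of the Mi2B peaks and 15.5% of the Oct4 peaks. Day 4 H3K27ac went the other way, at 38.4% of Mbd3 peaks and 81.4% of the Mi2B peaks, a difference of -43.0 points (-45.2 to -40.7). The H3K27me3 difference was 9.69 points (8.34 to 11.2) with all peaks cut to their midpoints and 64.0 points (58.6 to 68.8) with Mbd3 scores of at least 100. Both kinds of day 4 peak were narrow (medians 155 and 238 bp). Seen from the mark, 13.4% of bivalent MEF H3K27me3 peaks held a day 4 Mbd3 peak, against 1.03% of those without H3K4me3. The order was the same for MEF Mbd3 (4.69% and 0.241%) and iPS Mbd3 (10.8% and 1.85%). The part of this that follows the width of the H3K27me3 peaks was not tested.

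The top day 4-only peaks showed the same mixture. Those at chr15:75576742-75577965 (score 810.93) and chr11:118430778-118431568 (773.08) went from H3K27me3 alone in MEF to bivalent in iPS cells. The first of them also had H3K27ac in iPS cells. The third, at chr9:67480241-67481496, had H3K4me3 with H3K27ac in MEF and H3K4me3, H3K27me3 and H3K27ac in iPS cells. The last of the top 5, at chr13:74146540-74147482 and chr14:57676314-57677015, were bivalent in MEF and had H3K4me3 alone in iPS cells.

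Most peaks shared by day 4 and iPS cells lay in chromatin that was already acetylated in MEF. Of the 188 day 4 peaks of this class, 72.9% overlapped MEF H3K27ac, 73.4% that of day 4, 79.3% that of day 8 and 86.2% that of iPS cells. The day 4 value was 37.2 points (30.0 to 43.4) above day 4-only peaks and 57.3 points (47.2 to 65.2) above those shared with MEF. Mi2B of day 4 was present at 51.6%, against 19.9% and 9.68% in those classes, and Oct4 of day 4 at 45.7%, against 13.2% and 4.84%. MEF H3K27me3 lay at 21.3%. For comparison, MEF H3K27ac lay at 45.2% of day 4-only peaks. Acetylation this frequent was not particular to the class. Day 4 Mi2B peaks without Mbd3 overlapped H3K27ac of MEF at 77.9% and that of day 4 at 81.4%. The highest-scoring day 4 peaks of this class, outside MEF Oct4 regions, went the other way, and 4 of the top 5 had no H3K27ac in MEF or on day 4. Those at chr2:172765433-172766113 (score 502.98), chr4:62875162-62875570 and chr12:111518395-111518823 had H3K27me3 without H3K4me3 in MEF, and chr2:37642007-37642591 had no mark there. All 4 had H3K4me3 in iPS cells.

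**Figure D3:**
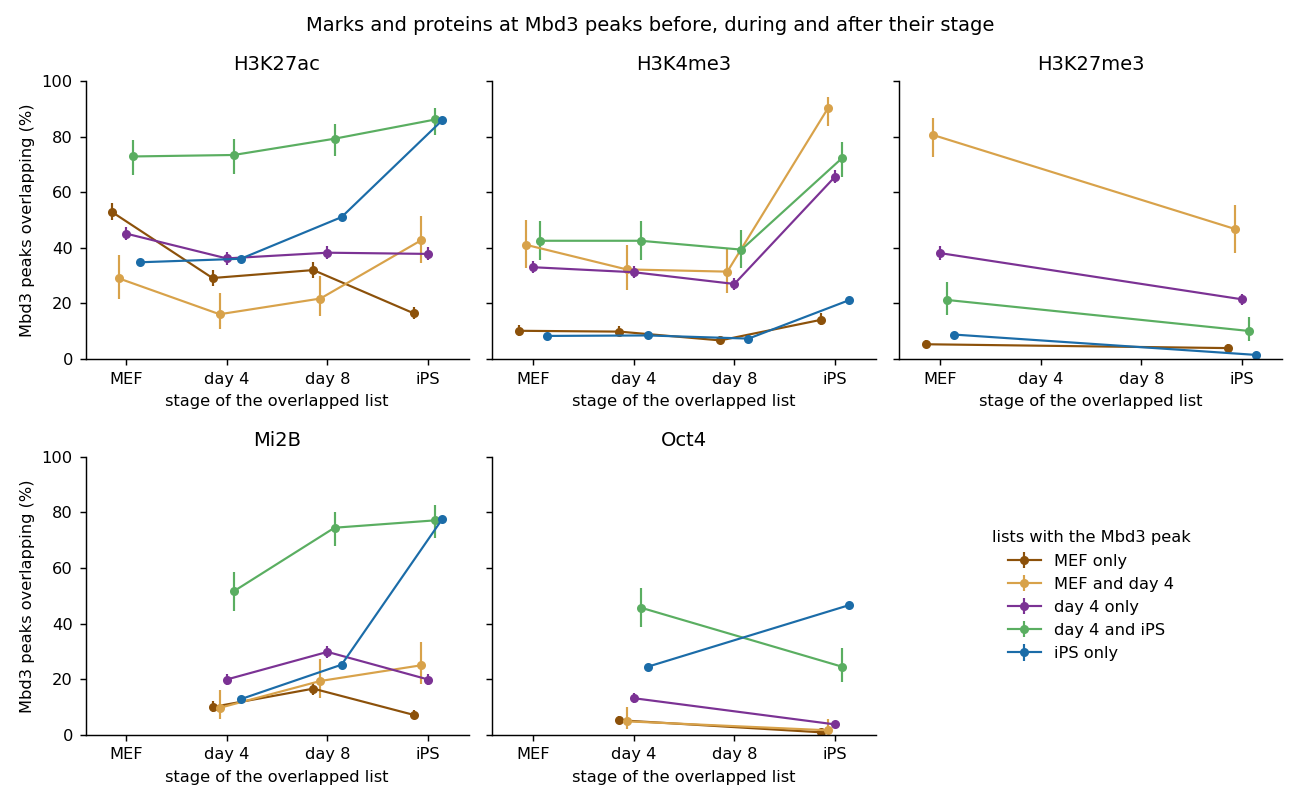
Share of Mbd3 peaks that overlap H3K27ac, H3K4me3, H3K27me3, Mi2B or Oct4 lists of each stage, in percent with 95% Wilson bars; colours mark the Mbd3 class (shared classes are read from the day 4 list). H3K27ac falls from 53.0% to 16.4% at MEF-only peaks and rises from 34.8% to 85.9% at iPS-only peaks, and H3K4me3 in iPS cells reaches 90.3% at peaks of MEF and day 4. The H3K27me3 lists of days 4 and 8, with 570 and 939 peaks, are not drawn, and Oct4 is drawn for day 4 and iPS.

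Mi2B was found early at the day 4 and iPS class. Read from the iPS list, 166 peaks were shared with day 4 alone, and 57.2% of them (49.6 to 64.5) had Mi2B at day 4, day 8 and iPS stages alike, against 9.02% of iPS-only peaks. In the Mi2B list of Mbd3-/- ES cells, 88.0% of these 166 peaks had a peak, against 53.5% of iPS-only peaks. H3K4me3 of iPS cells lay at 72.9% and 21.2%. Outside MEF Oct4 regions, the highest-scoring peak of this class in the iPS list, at chr17:35634552-35647539, spanned 12988 bp with a score of 672.69, while the highest of the whole class scored 3100. It overlapped 28 of the 40 other lists, with H3K27me3 in MEF, Mi2B and Oct4 from day 4, and H3K4me3 with H3K27ac in iPS cells. The labels say that the reporter is visible in input DNA at the Oct4 locus, and whether this region is that locus was not determined.

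iPS-only Mbd3 peaks were acetylated, mostly without H3K4me3, and carried Mi2B. Of the 8418 peaks, 66.4% had H3K27ac without H3K4me3 in iPS cells and 18.8% had both marks. H3K4me3 lay at 21.2%, against 72.8% of shared iPS peaks (difference -51.6, -56.9 to -45.6). Oct4 lay at 46.7%, against 33.5% (13.2, 6.88 to 19.0), a difference that was -0.23 points with scores of at least 100. Mi2B did not differ detectably, at 77.6% against 80.3% (-2.69, -7.32 to 2.88). H3K27ac lay at 85.9% against 79.5% (6.44, 1.74 to 12.0), but without peaks in MEF Oct4 regions the shared share was 87.2% and the difference -1.22 points.

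Most iPS-only sites were unmarked in fibroblasts. No mark was found in MEF at 4817 peaks (57.2%), and 3614 of these (75.0%) had H3K27ac without H3K4me3 in iPS cells. A further 2269 had H3K27ac without H3K4me3 in MEF, and 72.3% of them had that state in iPS cells too. Over all iPS-only peaks H3K27ac rose with stage, from 34.8% in MEF and 36.1% on day 4 to 51.1% on day 8, and 32.5% were acetylated in iPS cells alone. Mi2B lay at 12.8% on day 4 and 25.2% on day 8, and at 53.3% in iPS cells alone. Oct4 of day 4 was already found at 24.5%.

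The 5 highest-scoring iPS-only peaks all overlapped Mi2B and Oct4 in iPS cells. The first, at chr2:167365103-167366903 (score 458.09), had H3K4me3 with H3K27ac in MEF as well as iPS cells. Those at chr12:88271944-88274483 and chr8:127983766-127985266 had H3K27ac without H3K4me3 in both, with Mi2B and Oct4 from day 4. At chr14:99752073-99755358 the MEF was unmarked, Oct4 was found from day 4 and H3K4me3 with H3K27ac in iPS cells. The remaining one, at chr8:93375345-93376123, had no histone mark in MEF or in iPS cells.

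Mbd3 met Mi2B and Oct4 far more often in iPS cells than on day 4. Of all iPS Mbd3 peaks, 42.3% overlapped both proteins, 35.4% Mi2B alone, 3.99% Oct4 alone and 18.3% neither. On day 4, 10.4% overlapped both, 11.9% Mi2B alone, 5.30% Oct4 alone and 72.4% neither. Mi2B lists held 13930 peaks on day 4 and 26992 in iPS cells, and day 4 peaks were narrower, so the stages are set side by side without a test. Where they overlapped, Mbd3 and Mi2B midpoints lay a median 88 bp apart on day 4 and 135.5 bp in iPS cells. Overlap and peak width limit these distances, so they cannot be compared between stages. Median widths of Mbd3 and Mi2B peaks were 155 and 238 bp on day 4, and 852 and 830 bp in iPS cells.

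**Figure D4:**
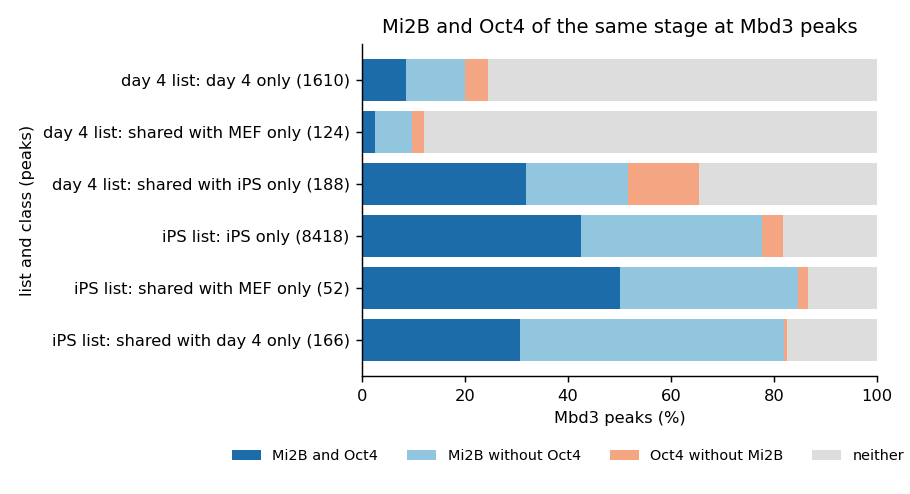
Mbd3 peaks of each class by same-stage Mi2B and Oct4, as stacked shares in percent, with the number of peaks in brackets. Neither protein was found at 87.9% of day 4 peaks shared with MEF and 75.5% of day 4-only peaks, compared with 34.6% of those shared with iPS and 18.3% of iPS-only peaks.

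Read from the partner, Mbd3 was most frequent where Mi2B and Oct4 met. In iPS cells 49.3% of Mi2B peaks with Oct4 carried Mbd3, against 15.9% without Oct4 (difference 33.4, 32.1 to 34.6). With scores of at least 100 the difference was 13.8 points, and with 1177 top peaks 10.6. For iPS Oct4 peaks the shares were 48.9% with Mi2B and 8.27% without (40.6, 39.2 to 42.0). On day 4 the order was the same at a lower level, with 4.25% and 2.46% of Mi2B peaks and 5.14% and 0.603% of Oct4 peaks. Peaks of iPS Mi2B with Mbd3 were wider than those without (medians 1045 and 779 bp). Oct4 of day 4 had been at 28.4% of those with Mbd3 and 12.9% of those without, while day 4 Mi2B had been at 16.6% and 14.4%.

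The 21 regions in all 3 lists were mostly Polycomb-marked in MEF, and many were acetylated in iPS cells. Of the 19 MEF peaks there, 73.7% overlapped MEF H3K27me3 and 42.1% MEF H3K27ac. In iPS cells 57.9% were bivalent, 94.7% had H3K4me3 and 68.4% overlapped H3K27ac. A peak counted as bivalent can also carry H3K27ac. The region at chr2:19373313-19374576 scored 168.09 (MEF), 1527.47 (day 4) and 177.63 (iPS), and went from H3K27me3 alone in MEF to bivalent in iPS cells. At chr7:36369763-36370663 (MEF) and chr7:36369635-36370490 (day 4) H3K4me3 with H3K27ac was found in MEF and in iPS cells. The iPS peaks at chr4:155610250-155610870 and chr7:35414745-35415881 likewise had that state in MEF and in iPS cells.

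Some Mbd3 peaks lay where a MEF Oct4 peak was also called, in cells that had not been induced. Of the MEF Mbd3 peaks, 28 of 1177 did so (2.38%, 1.65 to 3.42), while 68 of 117143 peaks in the other +/+ MEF lists, or 0.058%, overlapped a MEF Oct4 peak. On day 4 it was 5 of 1944 Mbd3 peaks (0.257%, 0.110 to 0.601) against 0.0512% of other day 4 peaks, and in iPS cells 22 of 8657 (0.254%) against 0.0813%. The MEF Oct4 list held 274 peaks, of which 29 (10.6%) overlapped MEF Mbd3. MEF H3K4me3 overlapped 31 of them (11.3%), and MEF H3K27ac and H3K27me3 19 each. Read from the Oct4 peaks, Mbd3 thus did not stand out from H3K4me3. Those 3 mark lists are far longer than the Mbd3 list, with 17023, 63888 and 36232 peaks, which lowers their share per peak. The part of the contrast that follows list length was not tested.

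Few as they were, these peaks led the MEF list. Their median score was 333.26, against 55.7 for the rest, and they included all 10 of the highest-scoring MEF Mbd3 peaks. In iPS cells 7 of the top 10 lay in such regions, and on day 4 it was 2. They made up 22 of the 57 MEF peaks shared with iPS alone (38.6%), and without regions of either MEF Oct4 list the share of MEF peaks overlapping iPS was 4.70% rather than 6.46%. After they were left out, 85.7% of the 35 other MEF peaks shared with iPS alone had MEF H3K27ac, against 52.6% of all 57.

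**Figure D5:**
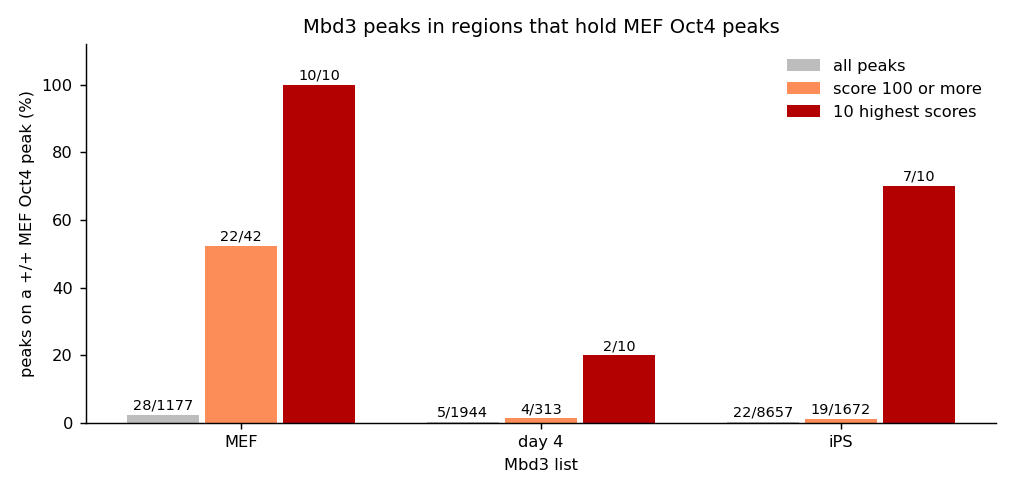
Share of Mbd3 peaks that overlap a +/+ MEF Oct4 peak, in percent, for all peaks, peaks with scores of at least 100 and the 10 highest scores of each list; counts stand above the bars. All 10 top MEF peaks and 7 of 10 top iPS peaks lie in such regions, against 2.38% and 0.254% of all peaks.

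The same few places recurred across antibodies. The MEF peaks at chr2:98502255-98503275 and chr2:98506260-98507624 both scored 3100, a value that recurs as the top of several lists. They overlapped 19 and 21 of the 40 other lists, and those at chr9:35112513-35113312, chr9:2999880-3001596 and chr9:3023078-3023706 overlapped 21, 15 and 17. Each of the 5 also had peaks of Oct4, Mi2B, H3K4me3 and H3K27me3 in iPS cells. None of the 5 overlapped an H3K27ac peak of +/+ cells at any stage. The day 4 regions were others, on the mitochondrial chromosome and at chr17:39979940-39983898 (score 1593.94, 20 other lists). None of the MEF and day 4 peaks described above as Polycomb-marked was among them.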

How the data were processed

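The peaks analysed were those deposited as 1 list per ChIP-seq library, with chromosome, start, end and a score per peak. The submitters' processing notes name MACS 1.4.1, Bowtie 0.12.5 and CASAVA 1.8.2, with mm9 as the build. Their settings are not stated in those notes or labels. This score, deposited by the authors, was taken, from its range and its lowest value of 50, as a log-scaled p of the caller, and it was used only to rank or filter within a list. Lists were called per library, so replicates could not be compared, and read depth is unknown.

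Samples were grouped by title, which differs from the stage label for the day 4 Mbd3 and H3K27me3 and the day 4 and day 8 Mi2B samples. Overlaps needed 1 bp. Wilson and Newcombe intervals were set at 95%. Chromatin states came from H3K4me3, H3K27ac and H3K27me3 lists of 1 stage: with H3K4me3, H3K27me3 took precedence over H3K27ac, and without it H3K27ac over H3K27me3. Alternatives were a score minimum of 100, coverage of 50% of the query peak, 250 bp either side of each midpoint, equal numbers of top peaks, autosomes alone, omission of MEF Oct4 regions and other definitions of those regions.

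Members and lists were chosen with earlier results of these data known. Regions named are the 5 highest-scoring peaks of each stage-only class and of the class in all 3 lists, outside MEF Oct4 regions, and the 5 highest inside them; those of the pairwise classes follow the same order outside MEF Oct4 regions and were chosen after their values were seen. The planned gene lists were not run, and no gene names or sequences are given, because the gene tables used here are of another build than mm9. Overlap counting was tested on simulated data and against bedtools 2.31.1, with 210 of 1944 day 4 peaks and 6728 of 8657 iPS peaks overlapping by either method. Python 3.11.15, numpy 2.4.6, pandas 2.3.3 and matplotlib 3.10.9 were used.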

Additional observations from a re-analysis of the deposited data

Results flagged for a closer look

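The contrast between stage-only and shared Mbd3 peaks was not the same in the 3 lists. For H3K27ac it was positive in MEF and negative on day 4, a difference of 25.2 points (15.2 to 35.0) between the lists, and day 4 also lay below iPS cells by 19.3 points (-19.3, -27.4 to -11.8). The separate H3K27ac contrasts were not stable: the MEF one was not called without MEF Oct4 regions (6.48), the iPS one turned to -1.22 there, and the day 4 one turned to 8.55 with equal numbers of top peaks. For Oct4 the contrast was negative in MEF and on day 4 and positive in iPS cells, with differences of -25.9 points (-34.3 to -18.2) for MEF minus iPS and -27.9 (-35.7 to -19.9) for day 4 minus iPS. The separate Oct4 contrasts of iPS cells and day 4 were not stable either. The iPS one lost its call with the coverage minimum and turned slightly negative, without a call, with the score minimum. The day 4 one stayed negative but lost its call with equal numbers of top peaks. Their values are given in the next section. The MEF value for Oct4 is the share in MEF Oct4 regions, 0.593% of MEF-only and 13.3% of shared peaks. These intervals treat peaks as independent and the lists as fixed.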

How the results depend on the processing

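No paired analysis was possible because each stage had 1 library. Of 84 recomputed differences, 66 kept their direction and call, 10 reversed and 8 lost their call; the H3K27me3 contrasts and the comparisons with Mi2B peaks were recomputed by choice after the data were seen. Autosomes alone, the flox/- MEF Oct4 list and both MEF Oct4 lists moved no main result. Differences are stage-only minus shared, in points. At midpoints (250 bp either side) MEF H3K27ac gave 5.43 and iPS H3K27ac -1.72. With 50% of the query peak covered, day 4 H3K4me3 gave -4.86, iPS Mi2B 4.89 and iPS Oct4 2.76. With Mbd3 scores of at least 100, MEF H3K4me3 gave -28.6, day 4 H3K27ac 6.63, H3K4me3 3.45 and Mi2B -7.46, iPS Mi2B 0.709 and iPS Oct4 -0.229. With 1177 top peaks per list, day 4 H3K27ac gave 8.55, H3K4me3 -0.0702, Mi2B 4.41 and Oct4 -3.01, and iPS Mi2B 1.94. Without MEF Oct4 regions, MEF H3K27ac gave 6.48 and iPS H3K27ac -1.22. Of the 10 reversed values, only day 4 H3K27ac with top peaks had an interval that excluded 0 (0.627 to 15.5). The causes were not tested.

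Shares moved as follows. At midpoints, H3K27ac of iPS lay at 7.51% of MEF-only and 20.9% of day 4-only peaks, and H3K27ac of MEF at 20.1% of day 4-only and 12.6% of iPS-only peaks; Mbd3 lay at 4.36% of day 4 Mi2B, 22.9% of iPS Mi2B and 32.5% of iPS Oct4 peaks, and 0 day 4 Mbd3 peaks met MEF Oct4. With 50% covered, 4.59% of MEF peaks met day 4, Mbd3 lay at 1.13% of day 4 Mi2B, 0.0238% of day 4 Oct4, 21.4% of iPS Mi2B and 32.7% of iPS Oct4 peaks, and MEF H3K27ac at 33.2% of iPS-only peaks. With scores of at least 100, 38.1% of MEF peaks met day 4, 47.6% met iPS and 52.4% MEF Oct4, and 4.15% of day 4 peaks met iPS and 1.28% MEF Oct4. In that setting iPS H3K27ac lay at 28.6% of MEF-only and 43.2% of day 4-only peaks and MEF H3K27ac at 34.6% of day 4-only peaks, and Mbd3 at 0.402% of day 4 Mi2B, 0.119% of day 4 Oct4, 6.39% of iPS Mi2B and 10.6% of iPS Oct4 peaks. With top peaks, 2.38% of MEF peaks met iPS, 10.5% of day 4 peaks met MEF and 3.23% met iPS, iPS H3K27ac lay at 42.2% of day 4-only peaks, and Mbd3 at 1.90% of day 4 Mi2B, 0.912% of day 4 Oct4, 4.59% of iPS Mi2B and 7.86% of iPS Oct4 peaks. Within 10 kb, 0.669% of day 4 Mbd3 peaks met MEF Oct4, and without MEF Oct4 regions 4.70% of MEF peaks met iPS. The score filter leaves 42, 313 and 1672 Mbd3 peaks. Unknown read depth limits every count of peaks not found.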

Other observations

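Mi2B peaks of Mbd3-/- ES cells, which lack Mbd3, were found unevenly over the Mbd3 classes of +/+ cells. They lay at 7.31% of MEF-only peaks, 28.7% of day 4-only peaks and 53.5% of iPS-only peaks. These classes come from different lists, with median widths of 481, 153 and 849 bp, so the shares are set side by side without a test. Among shared day 4 peaks, they lay at 37.9% of those shared with MEF and 80.9% of those shared with iPS.

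The 35 MEF peaks shared with iPS alone that lay outside MEF Oct4 regions scored from 50 to 84.6. In iPS cells the 32 matching peaks overlapped Mi2B at 78.1% and Oct4 at 21.9%, with H3K27ac at 87.5%.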
